A study of Mus musculus with 9 samples.

Results

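The 10 genes described here act in antigen presentation on MHC class II: the invariant chain gene Cd74, the class II chain genes H2-Aa, H2-Ab1 and H2-Eb1, the peptide loading genes H2-DMa, H2-DMb1 and H2-DMb2, the transactivator gene Ciita, and Cd86 and Cd80, which encode costimulatory ligands. They were taken as a named list and matched by symbol to the Ensembl IDs of the deposited table through GENCODE M21. All 10 were found among 55536 gene IDs, and all 10 passed the filter on low counts that left 13815 genes for testing. RNA was sequenced from bone marrow-derived macrophages (BMDM) of mice with the wild-type genotype, in 3 groups of 3 libraries. One group received exosomes, small vesicles shed by cells, from BMDM of ApoE-deficient mice, one received exosomes from BMDM of wild-type mice, and the third received PBS, the vehicle. Both kinds of exosome were given at 2e+09 particles/mL, and all groups were exposed for 18 hours. The recipient cells of every group came from bone marrow of male mice 6 to 12 weeks old and had been differentiated for 6 days with 25 ng/mL of M-CSF, which turns marrow progenitors into macrophages. The design text calls the libraries biological replicates, but the sources used here do not tie them to separate mice or exosome preparations, so the p-values reflect only how these libraries vary, which may be technical.

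An MHC class II molecule is a pair of an α and a β chain that carries peptides from the endosome to the cell surface, where CD4 T cells read them. Newly made pairs bind the invariant chain, which guards the peptide groove and steers the complex to endosomes, where proteases cut it down and the H2-DM dimer exchanges the remaining fragment for peptide. CIITA, the product of Ciita, is a coactivator that binds no DNA itself and is recruited to factors sitting on the promoters of these genes. In macrophages the classic inducer of Ciita is interferon-γ. CD80 and CD86 are not part of this chain of events and supply the second signal to T cells through CD28.

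Each library held 28581306 to 35929596 counts, and 17150 to 18680 genes had at least 1 count. In a principal component analysis of log2 CPM (counts scaled to a common library size), replicate 3 of wild-type exosomes stood apart on the first component, at 57.5 against -16.8 to 3.43 for the other libraries. On the second component, replicate 2 of ApoE-deficient exosomes at 38 and replicate 2 of wild-type exosomes at -45.4 lay apart. The label of the cells was matched by their macrophage markers: all 15 listed were detected in every library, with the lysozyme gene Lyz2 at 12570 to 14670 CPM and Csf1r, the M-CSF receptor gene, at 3253 to 4192 CPM.

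Class II transcripts were sparse in these cells. Together, Cd74, H2-Aa, H2-Ab1 and H2-Eb1 took 0.00666% to 0.0075% of the counts of a library after ApoE-deficient exosomes, 0.00784% to 0.00933% after wild-type exosomes and 0.0109% to 0.0125% after PBS. None of these ranges overlapped, and the sum was not tested. Of all genes tested, 9.24% lay wholly below PBS after ApoE-deficient and 8.87% after wild-type exosomes. Between the exosomes 7.01% lay wholly lower after ApoE-deficient ones, while Cd74 and H2-Eb1 taken singly overlapped there. Per length of annotated exon, Cd74 was the most abundant member, with 24.8 ± 0.889 CPM per kb after ApoE-deficient exosomes, 29.8 ± 4.28 after wild-type exosomes and 40.7 ± 2.28 after PBS (SD, n = 3 libraries, as for all SDs here). On that scale it exceeded 87.5%, 89.7% and 92.8% of the genes tested in the same order of groups. Ciita had the lowest mean of the members, at 0.112 ± 0.0357 CPM per kb after ApoE-deficient exosomes, 0.108 ± 0.00632 after wild-type exosomes and 0.171 ± 0.0626 after PBS. The group means stood in the same order of level per length in all 3 groups: Cd74, H2-DMb1, H2-Ab1, H2-Eb1, H2-DMa, H2-Aa, Cd86, Cd80, H2-DMb2 and Ciita.

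**Figure D1:**
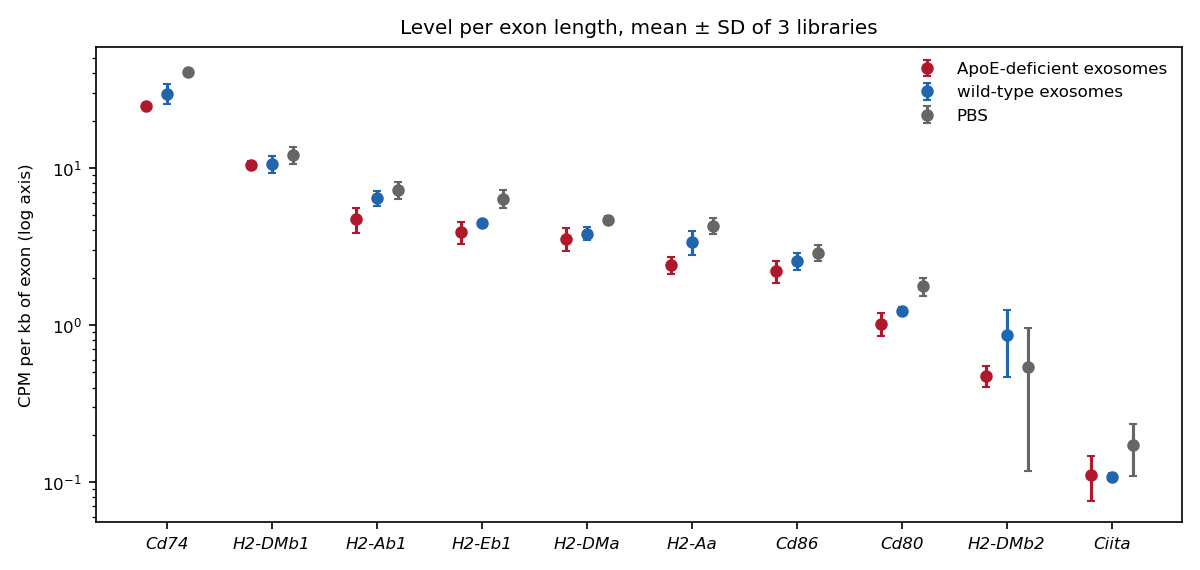
Level of each gene as CPM per kb of exon on a log axis, as mean and SD of 3 libraries, for ApoE-deficient exosomes, wild-type exosomes and PBS, with genes ordered by their PBS level. Cd74 leads with 24.8, 29.8 and 40.7 CPM per kb in the 3 groups, and Ciita has the lowest mean in each.

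Neighbours in this order were not all separated. After ApoE-deficient exosomes, H2-Ab1 at 4.72 ± 0.856 and H2-Eb1 at 3.90 ± 0.638 CPM per kb differed by less than the larger SD, as did H2-Eb1 and H2-DMa at 3.55 ± 0.584, and H2-Aa at 2.41 ± 0.286 and Cd86 at 2.20 ± 0.340. After wild-type exosomes the same held for H2-DMa at 3.82 ± 0.360 and H2-Aa at 3.39 ± 0.604 CPM per kb, and for Cd80 at 1.23 ± 0.0751 and H2-DMb2 at 0.858 ± 0.392. After PBS, H2-Ab1 at 7.20 ± 0.889 and H2-Eb1 at 6.39 ± 0.821 were not separated in this sense, nor were H2-DMa at 4.65 ± 0.265 and H2-Aa at 4.29 ± 0.513, or H2-DMb2 at 0.539 ± 0.422 and Ciita at 0.171 ± 0.0626 CPM per kb. In replicate 3 of PBS, H2-DMb2 at 0.146 lay below Ciita at 0.211 CPM per kb. The place of H2-Aa depends on its annotated exon length of 3798 bases, which includes a transcript with a retained intron.

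Setting ApoE-deficient exosomes against PBS asks what vesicles from donors without ApoE do to recipient macrophages. Cd74, H2-Aa, H2-Ab1, H2-Eb1 and Cd80 fell by 34.5% to 43.8%, and no member rose. These are 5 of 10 members past an adjusted p of 0.05 in edgeR's quasi-likelihood test, all lower, where 2.41% of the genes tested passed in that direction, 1.82% in the other and 4.23% in either. In 7 of the 10 members every library of ApoE-deficient exosomes lay below every PBS library, against 9.24% of all genes tested, and in no member above it, against 9.06%. All 10 estimates were below 0, as were 50.2% of those of all genes, and the median log2 fold change was -0.61 over the members and -0.00052 over all genes tested. The members were listed with earlier results of these data known, so these counts describe them and are no independent evidence. In bulk RNA, fewer cells of a type and less RNA per cell cannot be told apart.

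**Figure D2:**
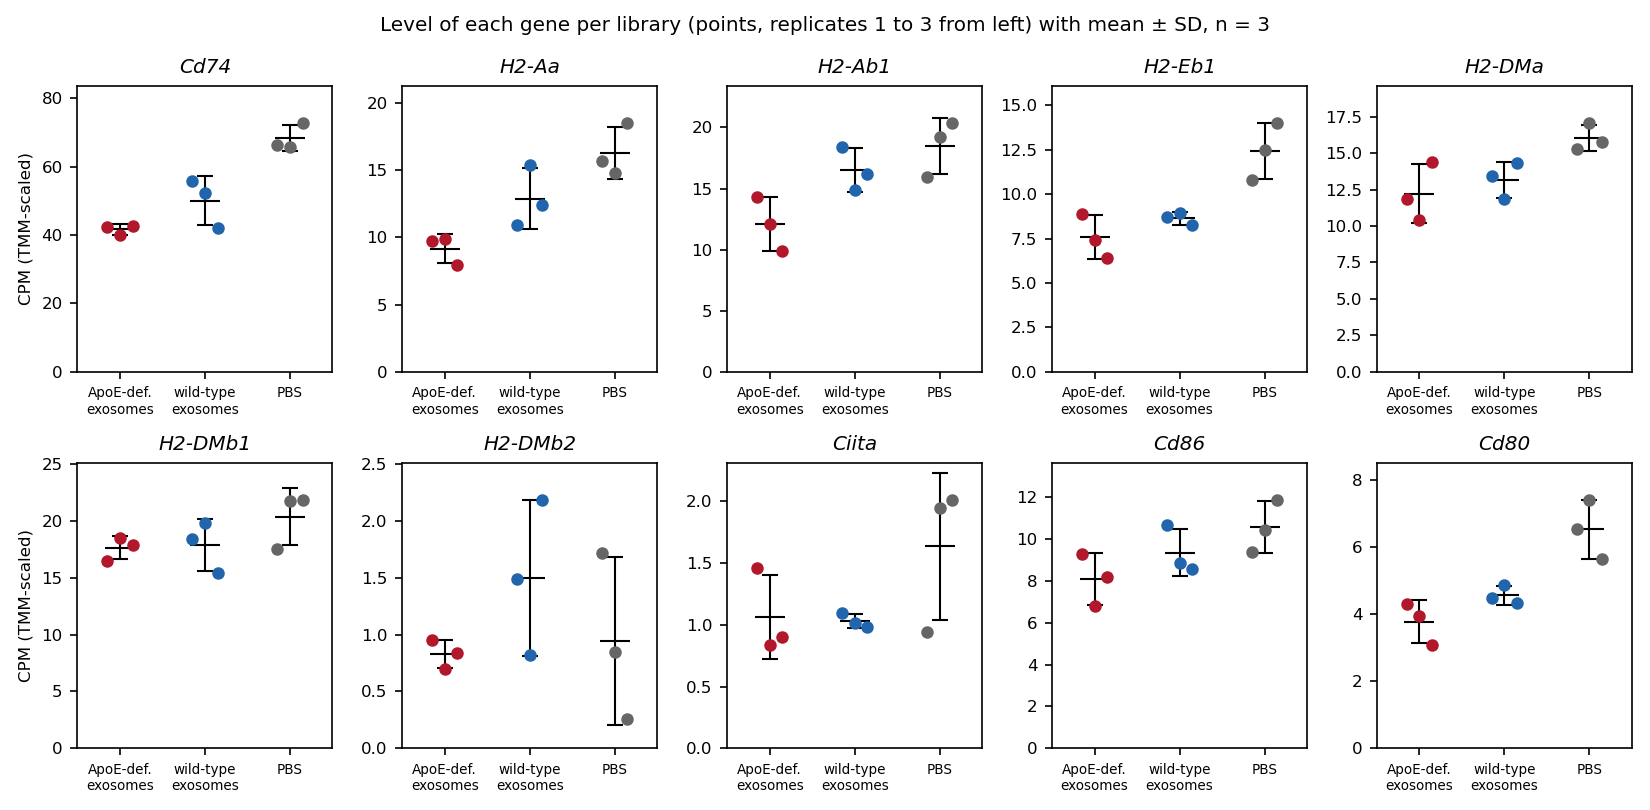
CPM of each of the 10 genes in every library (points), with mean and SD of 3 libraries (bars), for ApoE-deficient exosomes, wild-type exosomes and PBS, on axes that start at 0. Cd74 lies at 39.9 to 42.5 CPM after ApoE-deficient exosomes and at 65.9 to 72.7 CPM after PBS, whereas H2-DMb2 spans 0.255 to 2.19 CPM and Ciita 0.839 to 2.01 CPM with groups that overlap.

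Cd74, whose product chaperones the class II pair, had 42.5, 39.9 and 42.5 CPM after ApoE-deficient exosomes, 55.8, 52.3 and 42.0 CPM after wild-type exosomes and 66.3, 65.9 and 72.7 CPM after PBS. All exosome libraries lay below all PBS libraries, and 1 library of wild-type exosomes, replicate 3, lay inside the range of ApoE-deficient exosomes. The fall after ApoE-deficient exosomes was -0.71 ± 0.083 on the log2 scale (SE; edgeR adjusted p = 1.53e-07), and it passed in all 14 alternatives, at -0.74 to -0.67.

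H2-Aa (ENSMUSG00000036594, chromosome 17, 34282744 to 34287823 in GRCm38, minus strand) encodes the α chain of the I-A molecule. It had 9.71, 9.85 and 7.91 CPM after ApoE-deficient exosomes, 10.9, 15.4 and 12.4 CPM after wild-type exosomes and 15.6, 14.7 and 18.5 CPM after PBS. The libraries of ApoE-deficient exosomes were the lowest 3 of the 9, while those of wild-type exosomes overlapped with PBS. Its log2 fold change for ApoE-deficient exosomes against PBS was -0.83 ± 0.15 (edgeR adjusted p = 0.00038), the most negative among the members, and it passed in all 14 alternatives.

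H2-Ab1 (ENSMUSG00000073421, chromosome 17, 34257689 to 34269419, plus strand) encodes the partner β chain of I-A. Its level was 14.3, 12.1 and 9.90 CPM after ApoE-deficient exosomes, 18.4, 14.9 and 16.2 CPM after wild-type exosomes and 15.9, 19.2 and 20.3 CPM after PBS. ApoE-deficient exosomes gave the lowest 3 libraries here too, with a log2 fold change against PBS of -0.61 ± 0.14 (edgeR adjusted p = 0.00556). The call ended without replicate 3 of ApoE-deficient exosomes (edgeR adjusted p = 0.083, the highest over the alternatives, of which the lowest was 0.00068).

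H2-Eb1 (ENSMUSG00000060586, chromosome 17, 34305867 to 34316674, plus strand) encodes the β chain of the I-E molecule. It had 8.90, 7.44 and 6.43 CPM after ApoE-deficient exosomes, 8.71, 8.94 and 8.26 CPM after wild-type exosomes and 10.8, 12.5 and 13.99 CPM after PBS. Every exosome library was below every PBS library, and the libraries of ApoE-deficient and wild-type exosomes overlapped. The log2 fold change for ApoE-deficient exosomes against PBS was -0.71 ± 0.17 (edgeR adjusted p = 0.00602). It missed the threshold without replicate 3 of ApoE-deficient exosomes or replicate 3 of PBS (edgeR adjusted p = 0.075 and 0.0593, with 0.00227 to 0.075 over all alternatives). The gene of the I-E α chain, annotated in M21 as H2-Ea-ps and looked up after the values of the members were seen, had 0 counts in 8 libraries and 3 in replicate 3 of PBS.

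Ratios between the counts of the chains were taken within each library. H2-Aa had 0.679 to 0.813 counts for each count of H2-Ab1 after ApoE-deficient exosomes, 0.590 to 1.03 after wild-type exosomes and 0.769 to 0.981 after PBS. Cd74 had 4.05 to 5.38, 3.40 to 5.13 and 3.94 to 4.47 counts for each count of H2-Aa in the same order of groups. These ratios overlapped between all 3 groups. The count of H2-Eb1 for each count of H2-Ab1 was 0.614 to 0.649 after ApoE-deficient exosomes, 0.473 to 0.600 after wild-type exosomes and 0.651 to 0.688 after PBS. These ranges did not overlap, but ApoE-deficient exosomes and PBS came as near as 0.649 and 0.651. No ratio was tested, so a difference in this ratio between the groups is not shown.

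The promoters of H2-Aa, H2-Eb1 and the H2-DM β genes are shown because these members sit together on chromosome 17 and some of them passed the test while others did not. Class II promoters are known for an X box, bound by RFX in its first part and by CREB-like factors in its second, followed by a Y box bound by NF-Y, and CIITA is recruited to that assembly. The RefSeq table for GRCm38.p6 matched 6 of the 10 members, not Cd74, H2-Ab1, Ciita and Cd86, and gives 250 bases before and 50 after an annotated start, in the direction of transcription. Capitals mark AACNGATG (letters of the first part of an X box), TGACGTCA (a palindrome that CREB-like factors bind) and TGATTGG (letters of a Y box). These letters were chosen after reading the windows, were searched on both strands, and did not overlap each other.
H2-Aa, chr17:34287774-34288073, minus strand: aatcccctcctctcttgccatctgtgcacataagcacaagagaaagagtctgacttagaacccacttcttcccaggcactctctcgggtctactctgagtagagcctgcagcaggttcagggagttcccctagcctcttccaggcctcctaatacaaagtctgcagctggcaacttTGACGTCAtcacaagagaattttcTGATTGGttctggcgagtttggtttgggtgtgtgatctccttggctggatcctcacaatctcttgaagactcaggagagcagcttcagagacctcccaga
H2-Eb1, chr17:34305617-34305916, plus strand: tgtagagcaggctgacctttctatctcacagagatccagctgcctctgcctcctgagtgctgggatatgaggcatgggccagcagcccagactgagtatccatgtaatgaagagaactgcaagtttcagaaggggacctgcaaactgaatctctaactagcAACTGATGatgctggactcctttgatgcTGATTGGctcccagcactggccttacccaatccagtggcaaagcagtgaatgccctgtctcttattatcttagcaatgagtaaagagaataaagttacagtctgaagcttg
H2-DMb1, chr17:34152941-34153240, plus strand: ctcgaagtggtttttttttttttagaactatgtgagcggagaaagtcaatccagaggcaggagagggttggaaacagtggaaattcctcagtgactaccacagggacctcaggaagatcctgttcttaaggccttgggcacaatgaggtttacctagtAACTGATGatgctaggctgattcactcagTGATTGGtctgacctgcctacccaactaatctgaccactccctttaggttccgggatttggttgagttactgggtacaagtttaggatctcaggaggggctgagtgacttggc
H2-DMb2, chr17:34144999-34145298, plus strand: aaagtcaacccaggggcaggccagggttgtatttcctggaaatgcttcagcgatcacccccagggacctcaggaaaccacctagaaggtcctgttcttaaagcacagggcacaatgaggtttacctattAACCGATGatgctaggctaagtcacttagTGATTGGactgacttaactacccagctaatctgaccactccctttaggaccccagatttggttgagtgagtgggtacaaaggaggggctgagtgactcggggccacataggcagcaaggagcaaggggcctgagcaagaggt

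In H2-Eb1, AACNGATG began 89 bases before the start and TGATTGG 61 bases before it, with 20 bases between them. H2-DMb1 and H2-DMb2 held the same pair with 21 bases between, starting 92 and 121 bases before their starts. H2-Aa held no AACNGATG but had TGACGTCA from 74 and TGATTGG from 50 bases before its start. AACNGATG occurred in 2.32% of all 32851 RefSeq windows, TGACGTCA in 1.79% and TGATTGG in 7.82%. The ordered pair with 5 to 40 bases between occurred in 7 windows (0.0213%). Of these, 4 belong to H2-Eb1, H2-DMb1, its close copy H2-DMb2, and H2-Eb2, a class II β chain gene outside the list. The rest belong to BC051142 and H2-M10.4 on chromosome 17 and Gm35444 on chromosome 13. Because the letters were chosen after reading the windows, this share is no independent evidence. None of the 3 sets of letters was found in the 2 windows of H2-DMa or the window of Cd80. Those of H2-DMa begin at 34122582 and 34125268, inside the gene annotated from 34119541. That of Cd80 begins at 38458683, inside the gene annotated from 38455561. The bases before the first annotated position of these genes were not searched, so their promoters there may hold such letters. A match in letters is a description and shows no binding in these cells. H2-Eb1 fell after ApoE-deficient exosomes while H2-DMb1 and H2-DMb2, with the same pair of letters, did not pass.

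The peptide loading genes had smaller or less certain differences from PBS. H2-DMa (chromosome 17, 34119541 to 34139101, plus strand) encodes the α chain of the exchange factor H2-DM. It had 11.9, 10.4 and 14.4 CPM after ApoE-deficient exosomes, 13.4, 11.9 and 14.3 CPM after wild-type exosomes and 15.3, 17.1 and 15.8 CPM after PBS. Every exosome library lay below every PBS library, but the log2 fold changes of -0.39 ± 0.14 after ApoE-deficient and -0.28 ± 0.14 after wild-type exosomes did not pass (edgeR adjusted p = 0.143 and 0.371). Exons of Brd2 on the opposite strand overlap 10.4% of its exon length, and whether the counting was strand-aware is not known here.

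H2-DMb1 (chromosome 17, 34153072 to 34160230, plus strand) encodes a β chain of H2-DM. Its level was 16.5, 18.5 and 17.9 CPM after ApoE-deficient exosomes, 18.4, 19.9 and 15.4 CPM after wild-type exosomes and 17.5, 21.8 and 21.9 CPM after PBS, with all 3 groups overlapping. Its 95% interval for ApoE-deficient exosomes against PBS, -0.46 to 0.042 on the log2 scale, leaves out the estimates of H2-Aa, H2-Ab1 and H2-Eb1, although a difference between genes was not tested. H2-DMb2 (chromosome 17, 34143307 to 34151555, plus strand) is a close copy with 9 to 67 counts a library, too few for a narrow interval (-1.44 to 1.09 for the same comparison). Of the 50-base words of H2-DMb1 transcripts, 22.7% also occur in H2-DMb2, so reads of the pair may be split between them. With their counts summed, the log2 fold change for ApoE-deficient exosomes against PBS was -0.21 ± 0.12 (edgeR adjusted p = 0.471).

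Ciita (ENSMUSG00000022504, chromosome 16, 10480059 to 10528418, plus strand), the master regulator of the chain genes, was near the limit of detection. It had 1.46, 0.839 and 0.898 CPM after ApoE-deficient exosomes, 1.10, 1.02 and 0.979 CPM after wild-type exosomes and 0.945, 1.95 and 2.01 CPM after PBS, from 24 to 71 counts a library. Replicate 1 of PBS lay among the exosome libraries, whereas the other 2 PBS libraries were above all 6 of them. Its log2 fold change against PBS was -0.62 ± 0.51 after ApoE-deficient and -0.67 ± 0.51 after wild-type exosomes (edgeR adjusted p = 0.723 and 0.65). The intervals of -1.65 to 0.42 and -1.71 to 0.37 include both the falls seen in the chain genes and no change, so a difference in Ciita of that size was not detectable at this depth. Exons of Dexi on the opposite strand overlap 3.45% of its exon length.

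Of the costimulatory ligands, Cd80 (ENSMUSG00000075122, chromosome 16, 38455561 to 38496335, plus strand) had 4.31, 3.95 and 3.07 CPM after ApoE-deficient exosomes, 4.48, 4.88 and 4.34 CPM after wild-type exosomes and 6.55, 7.42 and 5.64 CPM after PBS. All exosome libraries were below all PBS libraries. The fall after ApoE-deficient exosomes was -0.79 ± 0.23 on the log2 scale (edgeR adjusted p = 0.0384). That call was the least stable of the 5: it ended without any 1 of the 3 libraries of ApoE-deficient exosomes and without replicate 1 or 2 of PBS, with adjusted p of 0.0164 to 0.217 over the alternatives, the highest without replicate 3 of ApoE-deficient exosomes. Cd86 (ENSMUSG00000022901, chromosome 16, 36603869 to 36666081, minus strand) had 9.26, 6.78 and 8.17 CPM after ApoE-deficient exosomes, 10.7, 8.84 and 8.55 CPM after wild-type exosomes and 9.38, 10.5 and 11.9 CPM after PBS. Its libraries of ApoE-deficient exosomes lay below those of PBS, but the log2 fold change of -0.39 ± 0.17 did not pass (edgeR adjusted p = 0.283).

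The count of 5 members for ApoE-deficient exosomes against PBS was the same in all 8 alternatives that kept every library of the groups compared. It was 4 without any 1 library other than replicate 3 of ApoE-deficient exosomes, without which it was 2, Cd74 and H2-Aa.

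Wild-type exosomes against PBS ask what vesicles from unmodified donors do. Cd74 fell, by -0.45 ± 0.082 on the log2 scale or 26.7% (edgeR adjusted p = 0.000384), and no other member passed. This is 1 of 10 members, where 2.18% of the genes tested passed in that direction, 1.93% in the other and 4.11% in either. Without replicate 3 of wild-type exosomes, the library that stood apart, Cd74 was at -0.33 and still passed (edgeR adjusted p = 0.0124, with 5.05e-07 to 0.0124 over the alternatives). The libraries of wild-type exosomes lay wholly below those of PBS for Cd74, H2-Eb1, H2-DMa and Cd80, 4 of 10 members against 8.87% of all genes tested, and wholly above them for none, against 8.59%. H2-Eb1 stood at -0.53 ± 0.17 (edgeR adjusted p = 0.0671) and passed with DESeq2 alone among the alternatives (adjusted p = 0.046). H2-Aa at -0.34 ± 0.15 and H2-Ab1 at -0.16 ± 0.14 did not pass (edgeR adjusted p = 0.277 and 0.698). Over the members the median log2 fold change was -0.31, against -0.0033 over all genes tested. Both comparisons with PBS share the same 3 PBS libraries.

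**Figure D3:**
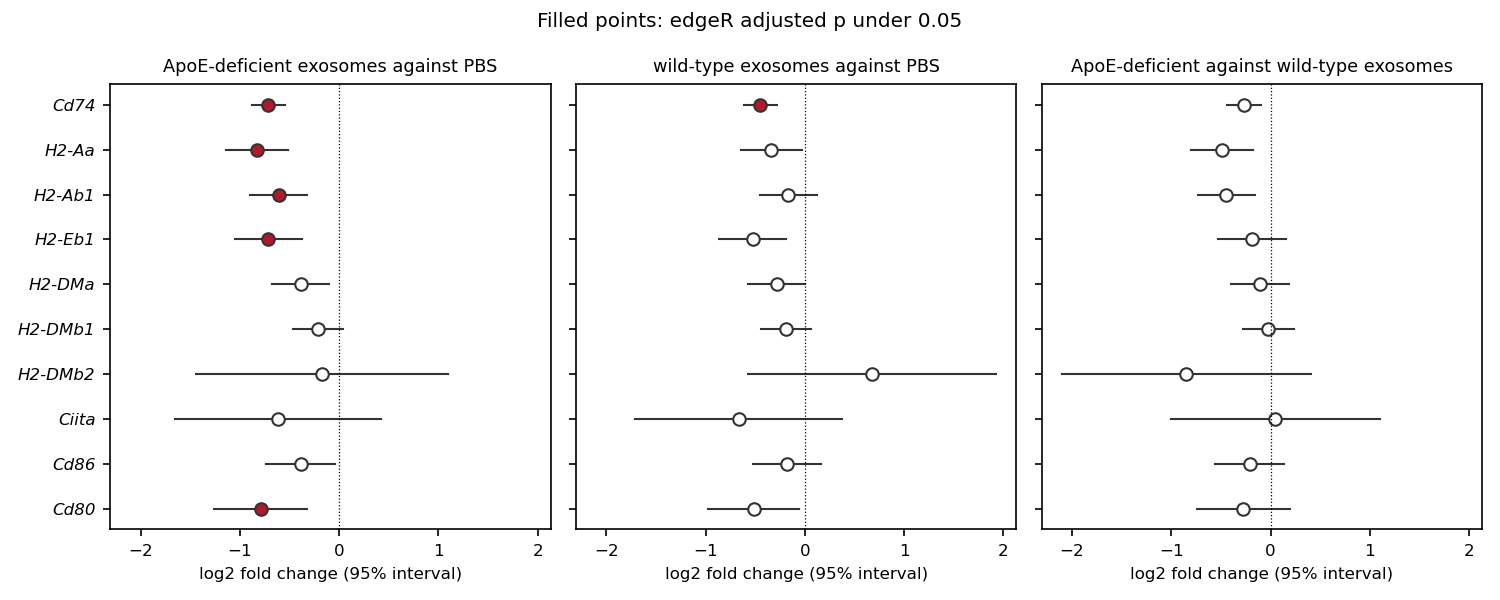
Log2 fold change of each of the 10 genes (points) with its 95% interval (lines) for ApoE-deficient exosomes against PBS, wild-type exosomes against PBS, and ApoE-deficient against wild-type exosomes, with filled points where the edgeR adjusted p is under 0.05. The filled points are 5 in the first panel and 1, Cd74, in the second, and the third has none.

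The comparison of ApoE-deficient with wild-type exosomes tests the difference between the exosomes directly. No member passed (0 of 10 in edgeR, and 0 with DESeq2 or limma-voom), where 0.695% of the genes tested did (0.413% lower and 0.282% higher), and 3 of 10 had an unadjusted edgeR p under 0.05. Those 3 were Cd74 at -0.26 ± 0.083, H2-Aa at -0.49 ± 0.15 and H2-Ab1 at -0.45 ± 0.14 on the log2 scale (edgeR adjusted p = 0.193, 0.19 and 0.209). Every library of ApoE-deficient exosomes lay below every library of wild-type exosomes for H2-Aa, H2-Ab1 and Cd80, 3 of 10 members against 7.01% of all genes, and above them for none, against 7.04%. The 95% intervals were -0.81 to -0.18 for H2-Aa and -0.74 to -0.16 for H2-Ab1, without adjustment for the number of genes. For H2-Eb1 the interval of -0.53 to 0.16 and for H2-DMb1 that of -0.28 to 0.23 include 0, which does not show that the exosomes act alike on these genes. Without replicate 3 of wild-type exosomes Cd74 passed, at -0.38 (edgeR adjusted p = 0.0174, with 0.0174 to 0.591 over the alternatives). The larger number of members past the threshold against PBS after ApoE-deficient exosomes is therefore not shown to be a difference between the exosomes.

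The other genes of the pathway were read from lists of promoter factors, regulators of Ciita, processing enzymes, traffic genes and ligands. Among 10 factors that bind class II promoters or work with CIITA there, 0 passed for ApoE-deficient exosomes against PBS in edgeR, DESeq2 and limma-voom (2 had an unadjusted edgeR p under 0.05). Rfx5, a subunit of the RFX complex on the X box, had 19.0 ± 2.28 CPM after ApoE-deficient exosomes, 19.8 ± 1.12 after wild-type exosomes and 22.8 ± 2.15 after PBS. For wild-type exosomes 1 of 10 passed, the histone acetyltransferase gene Ep300 at -0.12 ± 0.035 on the log2 scale, which missed the threshold in 6 of 14 alternatives (edgeR adjusted p up to 0.271).

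Of 13 regulators of Ciita and genes of interferon-γ signalling, 3 fell after ApoE-deficient exosomes and none rose (5 passed in DESeq2 and 4 in limma-voom). Ifngr1, the ligand-binding chain of the interferon-γ receptor, was at 182, 173 and 184 CPM after ApoE-deficient exosomes, 190, 190 and 189 CPM after wild-type exosomes and 215, 219 and 221 CPM after PBS, with every exosome library below every PBS library. It fell by 0.28 on the log2 scale after ApoE-deficient and by 0.20 after wild-type exosomes (edgeR adjusted p = 8.05e-06 and 0.00124). Irf1, an interferon-induced activator of Ciita, fell by 0.28 and Spi1, the myeloid factor PU.1, fell by 0.15 after ApoE-deficient exosomes (edgeR adjusted p = 0.00996 and 0.00331). The call of Irf1 ended without replicate 2 of ApoE-deficient exosomes, replicate 2 of PBS or replicate 3 of PBS (edgeR adjusted p up to 0.0727). After wild-type exosomes 2 of the 13 fell, Ifngr1 and Irf2. Irf2 stood at -0.19 and missed the threshold without replicate 1 or 2 of PBS or replicate 1 or 2 of wild-type exosomes (edgeR adjusted p up to 0.177). Between the exosomes 0 of 13 passed in edgeR, DESeq2 and limma-voom, with 1 at an unadjusted edgeR p under 0.05.

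Endosomal processing genes moved both ways. Of 10, 3 rose and 3 fell after ApoE-deficient exosomes, and 3 rose and 2 fell after wild-type exosomes. The proteases Ctsd, Ctsb and Ctsz were higher, Ctsd at 7123 ± 31.4 CPM after ApoE-deficient exosomes, 7572 ± 38.9 after wild-type exosomes and 6359 ± 195 after PBS. Ctsc fell by 0.42 on the log2 scale after ApoE-deficient and by 0.36 after wild-type exosomes, and Ctsl by 0.23 and 0.17. The third that fell after ApoE-deficient exosomes was Cst3, the gene of the protease inhibitor cystatin C, at -0.11 ± 0.031, a call lost in 6 of 14 alternatives, among them those without any 1 library of ApoE-deficient exosomes (edgeR adjusted p = 0.0317, and up to 0.244). Ctss, the protease known for the late cuts of the invariant chain, was at 4405 ± 160 CPM after ApoE-deficient exosomes, 4359 ± 166 after wild-type exosomes and 4254 ± 90.7 after PBS, and did not pass. Between the exosomes 1 of 10 passed in edgeR, 3 in DESeq2 and 2 in limma-voom. The 1 was Ctsb, lower after ApoE-deficient than after wild-type exosomes by -0.096 ± 0.022 on the log2 scale (edgeR adjusted p = 0.0169), and it was lost without replicate 1 or 2 of ApoE-deficient or replicate 2 or 3 of wild-type exosomes (edgeR adjusted p up to 0.15).

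Among 9 genes of class II ubiquitination and traffic, 4 rose and 1 fell after ApoE-deficient exosomes, and 3 rose and 1 fell after wild-type exosomes. The gene that fell was March1, whose product marks surface class II and CD86 with ubiquitin for removal. It had 58.3, 50.9 and 56.6 CPM after ApoE-deficient exosomes, 58.4, 58.5 and 55.4 CPM after wild-type exosomes and 70.1, 70.1 and 72.3 CPM after PBS. Every exosome library lay below every PBS library, and the log2 fold changes of -0.36 ± 0.068 and -0.30 ± 0.068 passed in all alternatives (edgeR adjusted p = 0.000575 and 0.00463). Those that rose included Arl8b, a GTPase of lysosome positioning, at 0.21 and 0.19, and the tetraspanin gene Cd63 at 0.16 and 0.19 on the log2 scale after ApoE-deficient and wild-type exosomes in that order. The rise of Cd63 after ApoE-deficient exosomes was lost without replicate 1 of ApoE-deficient exosomes or replicate 1 or 2 of PBS (edgeR adjusted p up to 0.0982). Cd9, another tetraspanin gene, rose by 0.17 after ApoE-deficient exosomes against PBS. It was also higher after ApoE-deficient than after wild-type exosomes, by 0.15 ± 0.037 (edgeR adjusted p = 0.0345), the 1 of 9 genes past the threshold there. That call was lost without any 1 library of ApoE-deficient exosomes or replicate 2 or 3 of wild-type exosomes (edgeR adjusted p up to 0.347).

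Of 13 tested genes among 16 other costimulatory and coinhibitory ligands and receptors, 3 fell after ApoE-deficient exosomes, 2 fell after wild-type exosomes and none rose. Icam1, an adhesion ligand in contacts with T cells, had 61.3 ± 1.84 CPM after ApoE-deficient exosomes, 70.1 ± 3.09 after wild-type exosomes and 81.9 ± 2.46 after PBS. Vsir, which encodes the inhibitory ligand VISTA, fell by 0.17 on the log2 scale after ApoE-deficient and by 0.15 after wild-type exosomes. Lgals9, the galectin-9 gene, was at 90.1 ± 5.93 CPM after ApoE-deficient exosomes, 112 ± 9.42 after wild-type exosomes and 107 ± 1.61 after PBS. It was lower after ApoE-deficient than after wild-type exosomes by -0.32 ± 0.059 on the log2 scale (edgeR adjusted p = 0.00175, and 0.0613 without replicate 3 of wild-type exosomes). Its fall against PBS, at -0.25, missed the threshold without replicate 1 of ApoE-deficient exosomes (edgeR adjusted p = 0.0717). The fall of Icam1 after wild-type exosomes ended without any 1 of 4 libraries (edgeR adjusted p up to 0.138).

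**Figure D4:**
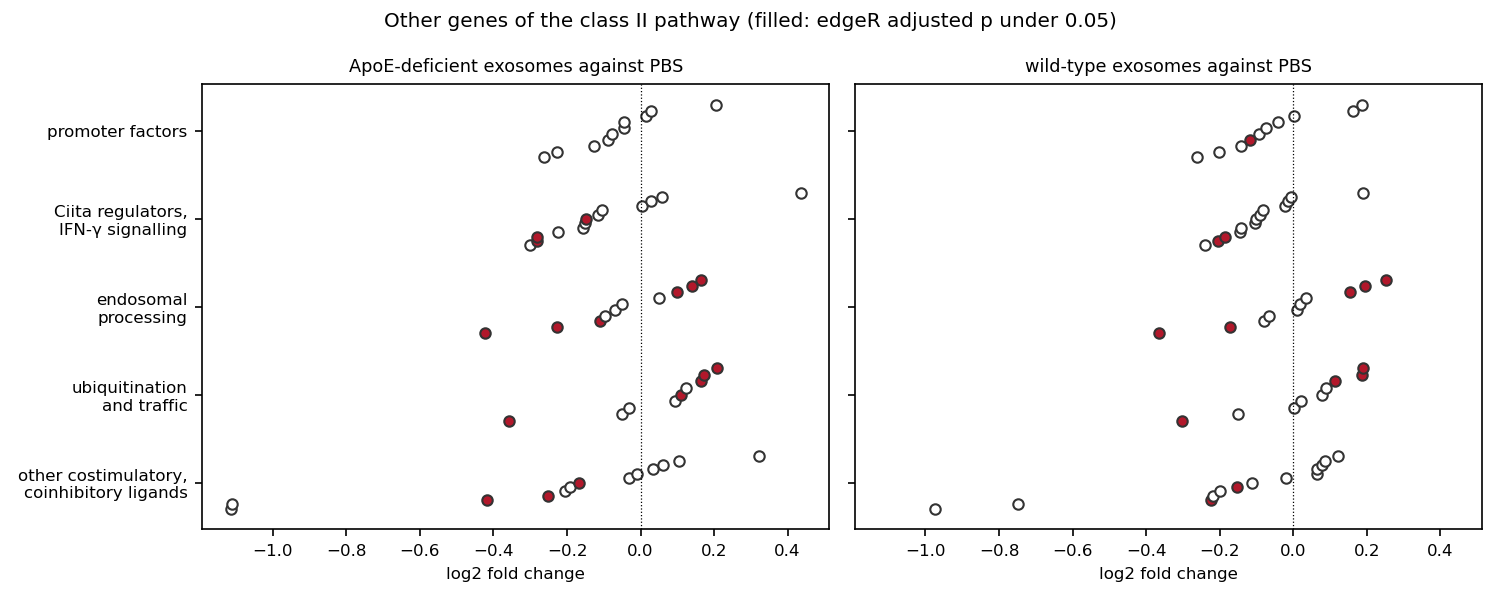
Log2 fold change of each tested gene (points) in 5 lists of the class II pathway, for ApoE-deficient exosomes against PBS and wild-type exosomes against PBS, with filled points where the edgeR adjusted p is under 0.05. Filled points lie on both sides of 0 for endosomal processing and for ubiquitination and traffic, and below 0 only for the other 3 lists.

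Of 11 tested genes that respond to interferon-γ, 2 fell after ApoE-deficient exosomes, Fcgr1 at -0.58 ± 0.052 and Irgm1 at -0.26 ± 0.074 on the log2 scale. Fcgr1, an Fc receptor gene, was also lower after ApoE-deficient than after wild-type exosomes, at -0.39 ± 0.052 (edgeR adjusted p = 9.58e-06). After wild-type exosomes against PBS it was the 1 of 11 that passed, at -0.18 ± 0.051 (edgeR adjusted p = 0.0289), and was lost without replicate 1 or 2 of wild-type exosomes or replicate 2 or 3 of PBS (edgeR adjusted p up to 0.165). The call of Irgm1 ended without 4 of the 6 libraries in turn (edgeR adjusted p up to 0.261). Of 7 tested genes that respond to interleukin-4, 1 fell after ApoE-deficient exosomes, the receptor chain gene Il4ra at -0.23 (2 passed in DESeq2 and 2 in limma-voom), and 0 passed after wild-type exosomes in edgeR and limma-voom, 1 in DESeq2, with 3 at an unadjusted edgeR p under 0.05. The call of Il4ra ended without replicate 3 of ApoE-deficient exosomes or replicate 1 or 3 of PBS (edgeR adjusted p up to 0.236). Between the exosomes 1 of the 7 passed, the transglutaminase gene Tgm2, lower after ApoE-deficient than after wild-type exosomes by -0.24 ± 0.038 in log2 (edgeR adjusted p = 0.000183). It passed in all 14 alternatives, and 5 of the 7 had an unadjusted edgeR p under 0.05 there.

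Dendritic cells and B cells express far more class II than resting macrophages, so their markers were read beside the chains. Summed over 17 dendritic cell markers, the level was 45.2 to 49.5 CPM after ApoE-deficient exosomes, 46.1 to 50.5 CPM after wild-type exosomes and 45.0 to 51.9 CPM after PBS, ranges that overlap. Itgax, which macrophages also express, was the most abundant at 16.5 to 22.2 CPM. Next came Traf1 at 10.15 to 13.7 CPM and Cd24a at 9.21 to 12.9 CPM, so the sum cannot show the level of markers near 0. Some markers were at or near 0: Zbtb46 had 0 to 15 counts, Flt3 0 to 9, Ccr7 0 to 9, Xcr1 0 to 10 and Cd209a 0 to 3. Others had counts in every library, among them Cd24a with 280 to 395, Traf1 with 310 to 485, Kit with 32 to 105 and Batf3 with 9 to 56. Kit lay wholly above PBS after both exosomes, Batf3 after ApoE-deficient and Cd24a after wild-type exosomes. Traf1 and Flt3 lay wholly below PBS after ApoE-deficient exosomes, Flt3 at 0 to 2 counts against 5 to 9 after PBS. Of the 7 that could be tested, 0 passed in any comparison with edgeR, DESeq2 or limma-voom, with 0 to 2 at an unadjusted edgeR p under 0.05. The 12 B cell markers summed to 56.0 to 71.5 CPM after ApoE-deficient exosomes, 47.0 to 55.7 CPM after wild-type exosomes and 61.1 to 63.2 CPM after PBS, mostly Ighm. Cd79a, Igkc, Cr2 and Vpreb3 had 0 counts in all 9 libraries, whereas Cd22 had 379 to 628 and Cd79b 8 to 62 counts a library. Cd22 lay wholly above PBS after both exosomes, and Cd79b wholly below PBS after wild-type exosomes. Ebf1 lay wholly below PBS after both exosomes, but near 0: 0 counts after ApoE-deficient exosomes, 0 to 1 after wild-type exosomes and 1 to 11 after PBS. Of 4 tested, 0 passed for ApoE-deficient exosomes against PBS (1 at an unadjusted edgeR p under 0.05, 0 in DESeq2 and limma-voom), and Ighm fell after wild-type exosomes, at -0.47 on the log2 scale (edgeR adjusted p = 0.00739), a call lost without replicate 1 or 3 of wild-type exosomes or replicate 1 or 2 of PBS (edgeR adjusted p up to 0.0928, without replicate 3 of wild-type exosomes). Other class II chain genes were nearly silent, with 0 to 2 counts of H2-Eb2, 0 to 16 of H2-Oa and 14 to 52 of H2-Ob, and 0 of the 2 tested passed in any comparison by edgeR, DESeq2 or limma-voom, also without adjustment.

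Neutrophil markers had a lower sum after ApoE-deficient exosomes than after PBS. Unlike the class II sums, their sums after wild-type exosomes overlapped with PBS. Their level over 12 genes was 12.7 to 25.6 CPM after ApoE-deficient exosomes, 21.2 to 41.1 CPM after wild-type exosomes and 31.6 to 43.6 CPM after PBS, so the libraries of ApoE-deficient exosomes lay below PBS here too. Ly6g had counts in 1 library only, Elane in 2 and Mpo in 3, while Mmp8 was at 5.35 to 10.8 CPM and Ngp at 1.34 to 12.0 CPM. Of the 7 tested, 0 passed for ApoE-deficient exosomes against PBS in edgeR and DESeq2 and 2 in limma-voom, with 1 at an unadjusted edgeR p under 0.05. S100a8, S100a9, Ngp, Camp and Lcn2 lay wholly below PBS there, against 9.24% of all genes tested, and Ltf and Mmp8 overlapped. After wild-type exosomes Camp and the untested Cxcr2 lay wholly below PBS. The median log2 fold change of the 7 was -1.11 after ApoE-deficient and -0.34 after wild-type exosomes. The part of these cells in the fall of the chains was not tested. Of 15 macrophage markers, 9 fell and 1 rose after ApoE-deficient exosomes and 7 fell and 2 rose after wild-type exosomes, and their median log2 fold changes were -0.15 and -0.10. C1qa, a complement gene, was at -0.46 and -0.28, Csf1r at -0.28 and -0.22 and the endotoxin co-receptor gene Cd14 at -0.37 and -0.36, while Lgals3, the galectin-3 gene, rose by 0.29 and 0.29. Some of these calls were lost in the alternatives. Lyz2 after ApoE-deficient exosomes ended without their replicate 2 or 3 or replicate 1 of PBS (edgeR adjusted p up to 0.23). After wild-type exosomes C1qb passed in 9 and Cd68 in 8 of 14 alternatives. The highest adjusted p of both came without replicate 3 of wild-type exosomes (edgeR, 0.231 and 0.32). Between the exosomes C1qa, C1qb and C1qc were lower after ApoE-deficient exosomes, by -0.18, -0.15 and -0.18, and C1qb was lost without replicate 2 of ApoE-deficient or replicate 2 of wild-type exosomes (edgeR adjusted p up to 0.0922). T and NK cell markers summed to 2.83 to 6.05 CPM after ApoE-deficient exosomes, 5.56 to 5.85 after wild-type exosomes and 4.13 to 6.74 after PBS, and fibroblast markers to 5.85 to 24.8, 16.6 to 30.0 and 8.94 to 63.8 CPM in the same order of groups.

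**Figure D5:**
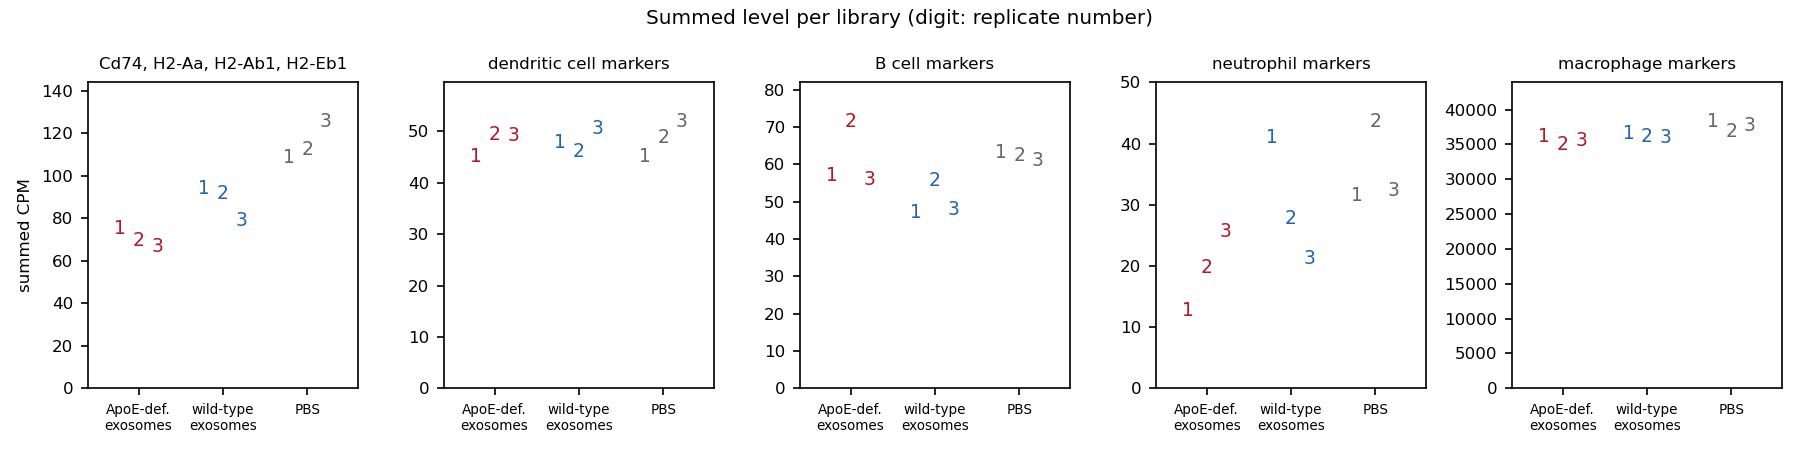
Summed CPM per library (digits give the replicate number) of Cd74, H2-Aa, H2-Ab1 and H2-Eb1 and of the marker lists of dendritic cells, B cells, neutrophils and macrophages, for ApoE-deficient exosomes, wild-type exosomes and PBS. The class II sum of 66.8 to 75.4 CPM after ApoE-deficient exosomes lies below the 109 to 126 CPM after PBS. The dendritic cell sums of the groups overlap, but they are mostly Itgax, Traf1 and Cd24a and cannot show markers near 0. The part of other cells in the class II fall was not tested.

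To name genes with a similar pattern, each of 9247 other genes with a mean of at least 5 CPM was compared with the mean log2 CPM of Cd74, H2-Aa, H2-Ab1 and H2-Eb1 over the 9 libraries. The 10 most alike were Birc3, Xylt2, Mxd4, Unc93b1, Ier2, Il21r, Ap1b1, Thbs1, Marcksl1 and Efhd2, with likeness by Pearson's coefficient of 0.937 to 0.976. The libraries share their treatments, and the highest values were picked from many, so these coefficients are a description. Birc3, an inhibitor of cell death, ranked the 9 libraries exactly as the class II mean did. Unc93b1, which escorts nucleic acid-sensing Toll-like receptors to endosomes, was at -0.20 ± 0.028 on the log2 scale after ApoE-deficient and -0.11 ± 0.028 after wild-type exosomes against PBS.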

How the data were processed

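RNA was measured in 9 libraries of mouse BMDM. The authors deposited raw counts for 55536 Ensembl IDs, all of which matched GENCODE M21. Per the submitters' processing notes, STAR 2.7.5c and GRCm38 were used. The annotation, strand setting and counter are not stated there or in the labels.

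Counts were tested with edgeR 4.0.16 in R 4.3.3: filterByExpr at a minimum count of 10 left 13815 genes, libraries were scaled by TMM, and a robust quasi-likelihood model in group alone took in all 9 libraries. Benjamini-Hochberg adjustment covered every gene tested. The threshold was 0.05, and adjusted p means edgeR's unless DESeq2 1.42.0 or limma-voom 3.58.1 is named. SEs and 95% intervals follow from the F statistics. CPM values use TMM-scaled library sizes. An exact permutation test of 3 against 3 libraries could not pass the threshold, so none was made. Library pairs differed by 6.76 to 10.2 (chi-square per gene) within groups and 7.70 to 18.4 between groups, so none was counted as deposited more than once. The steps were tested on simulated data.

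The members and lists were chosen with earlier results of these data known. Named genes were all members, from each other list up to 4 genes that passed in any comparison, by lowest p, the most abundant marker of another cell type, and the 10 genes most alike in pattern. Rfx5, Ctss, Ctsz, Cst3, Lyz2, Cd68, C1qb, C1qc, Ngp, H2-Eb2, H2-Oa, H2-Ob and H2-Ea-ps were added after their values were seen. Apart from the most abundant, the named markers of dendritic cells, B cells and neutrophils were also added then. Alternatives were DESeq2, limma-voom, RLE scaling, library size alone, no filter, only the 6 libraries compared, a replicate block, summed H2-DMb1 and H2-DMb2, and leaving out each library.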

Additional observations from a re-analysis of the deposited data

How the results depend on the processing

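Against PBS, the count of members past the threshold for ApoE-deficient exosomes was 2 to 4 when a library was left out and 5 in every other alternative. For wild-type exosomes it was 1 in every alternative except DESeq2, which gave 2. Between the exosomes it was 0 to 1 when a library was left out, the 1 being Cd74, and 0 otherwise. The sign of H2-DMb2 for ApoE-deficient exosomes against PBS turned with limma-voom, to 0.28, and lay at -0.62 to 0.59 when a library was left out. Between the exosomes, H2-DMb1 lay at -0.12 to 0.060 and Ciita at -0.25 to 0.19 when a library was left out. None of these reversed values passed, and the cause was not tested. With the replicate block, 5, 1 and 0 members passed for ApoE-deficient exosomes against PBS, wild-type exosomes against PBS and ApoE-deficient against wild-type exosomes, as without it, while all genes past the threshold numbered 662, 669 and 144 in place of 585, 568 and 96. Between the exosomes that count was 147 with DESeq2 and 52 to 101 when a library was left out. Libraries with the same number did not deviate together (correlations of -0.035 to 0.040), so the numbers are not read as pairs. Between 9 and 71 counts a library for H2-DMb2 and Ciita limit what could be seen in these genes.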
